A study of Homo sapiens with 18 samples.

Results

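The genes that encode the oxygen sensors and the hypoxia-inducible factors (HIFs) were read out by 3′ tag sequencing in a pair of head and neck squamous carcinoma lines. They are HIF1A, EPAS1, ARNT, VHL, EGLN1, EGLN2, EGLN3, HIF1AN, CUL2 and RBX1. The 10 genes were chosen for these roles and taken by symbol from the count table, where all 10 are among 41120 symbols.

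HIFs are transcription factors made of an oxygen-labile alpha subunit, HIF-1α (gene HIF1A) or HIF-2α (gene EPAS1), and the stable partner ARNT. When oxygen is present, the prolyl hydroxylases PHD2, PHD1 and PHD3 (genes EGLN1, EGLN2 and EGLN3) mark the alpha subunit, and the VHL protein then binds it and brings it to a ubiquitin ligase built on the elongins, CUL2 and RBX1. FIH (gene HIF1AN) hydroxylates the alpha subunit at another site and blocks its binding to coactivators. This control acts on the protein, so messenger levels of the alpha subunits do not report HIF activity, while EGLN3 and EGLN1 are themselves known HIF target genes.

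The study compared cells with and without a past of low oxygen. FADU-hfm (HPV-negative) and SCC154-hfm (HPV-positive) both carried a hypoxia fate-mapping system that changes a cell from DsRed to GFP for good; in the published system the switch is a recombinase driven by HIF-responsive elements, so the sort itself reads this pathway. Cells were grown as spheroids, sorted by colour, and then kept and passaged at normal oxygen before RNA was taken, so no library was made during low oxygen. The 4 groups were non-hypoxic (DsRed-positive) FADU with 4 libraries, post-hypoxic (GFP-positive) FADU with 5, non-hypoxic SCC154 with 5 and post-hypoxic SCC154 with 4, the last numbered 2 to 5. HPV status and line are the same contrast here, and each HPV status is 1 line. Nothing in the labels says that replicates were separate sorts or cultures, and each p-value therefore reflects the spread between these libraries only, which may be technical.

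The libraries held 1654719 to 2503573 counts each. Levels are given in CPM, counts scaled to library size with TMM factors, and 1 CPM was worth 1.68 to 2.44 counts. All 8 squamous epithelial markers were present, with a summed level of 1234 to 1795 CPM per library. The summed endothelial, fibroblast and immune markers stayed between 0.415 and 5.8 CPM, no marker of these lists passed the filter on low counts, and KDR, CLDN5, COL3A1, LUM, PDGFRA, CD3E and TYROBP were at 0 in every library. Replicate 3 of post-hypoxic SCC154 had the lowest total and formed, with replicate 4, the least alike pair within a group (chi-square 11.7 per degree of freedom). SCC154 results are therefore also given without this library and non-hypoxic replicate 1 where that changes a call or a direction.

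A difference was called at a Benjamini-Hochberg adjusted p under 0.05 in edgeR's quasi-likelihood test over 12291 genes. Of the 10 genes, 8 passed the filter on low counts; EGLN1, with 9 counts in all 18 libraries together, and EGLN2, with 23, did not. Between the post-hypoxic and non-hypoxic cells of SCC154, 1 of the 8 was called, VHL, which fell; 0.757% of all tested genes were called in that comparison, 0.423% lower and 0.334% higher. In FADU 0 of 8 were called, where the background is 0. The main edgeR fit called no gene at all, and 298 genes had an unadjusted p under 0.05. Among alternatives over all genes, DESeq2 called 3 and limma voom 0. In edgeR a replicate block within each line gave 7 calls, and no filter on low counts gave 10. The ranges of the FADU groups overlapped for all 8, and were apart for 1.07% of all tested genes. For the difference between the lines in their post-hypoxic change, 0 of 8 were called against a background of 0.0163%. Between the lines, 5 of 8 were called in non-hypoxic cells, where the background is 68.9% (34.5% in each direction), and 5 of 8 in post-hypoxic cells, where it is 69.7% (34.8% higher and 34.9% lower). Those shares are near the background, since most genes differ between these lines, and nothing is read from the counts themselves.

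**Figure D1:**
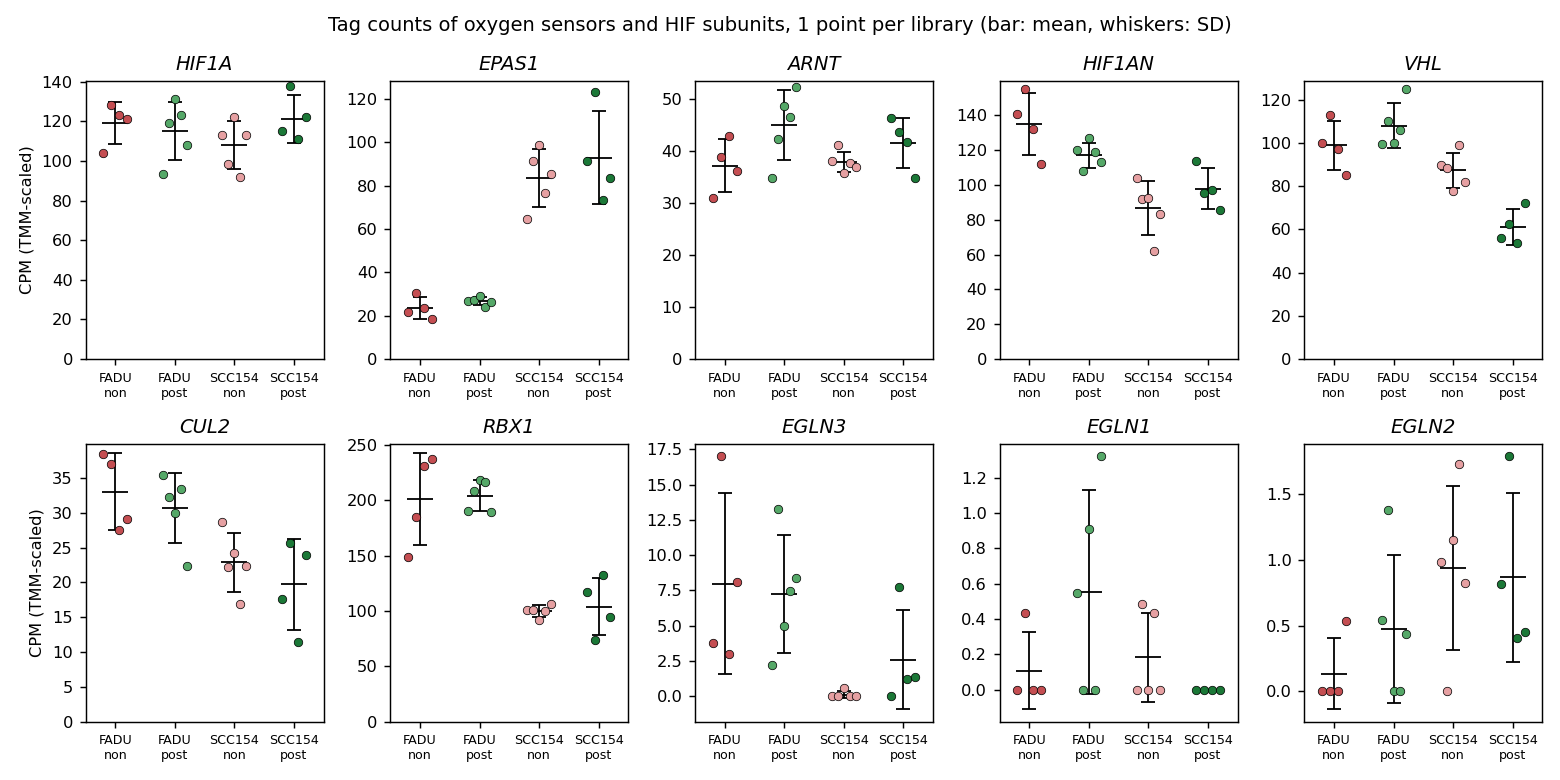
CPM (y axis, own scale for each gene) of the 10 genes in the 4 groups, 1 point per library, with the group mean as a bar and the SD as whiskers. EPAS1 is higher in SCC154 than in FADU, VHL is lowest in the 4 post-hypoxic SCC154 libraries, and EGLN1 and EGLN2 stay below 1.8 CPM in every library.

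The sequences upstream of 4 of these genes are shown because their levels are the ones described most closely: the alpha subunits HIF1A and EPAS1, the target-gene hydroxylase EGLN3, and RBX1, which holds the most matches to the core that HIFs bind. They are the 250 bases before the annotated gene start (RefSeq, GRCh38.p14), 5′ to 3′ on the gene's own strand, and capitals mark ACGTG or GCGTG on either strand, overlapping matches included.
HIF1A: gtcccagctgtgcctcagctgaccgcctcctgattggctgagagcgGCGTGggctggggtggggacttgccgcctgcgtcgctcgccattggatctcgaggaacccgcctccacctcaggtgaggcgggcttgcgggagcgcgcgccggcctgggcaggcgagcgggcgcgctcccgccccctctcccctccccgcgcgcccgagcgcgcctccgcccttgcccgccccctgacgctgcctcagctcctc
EPAS1: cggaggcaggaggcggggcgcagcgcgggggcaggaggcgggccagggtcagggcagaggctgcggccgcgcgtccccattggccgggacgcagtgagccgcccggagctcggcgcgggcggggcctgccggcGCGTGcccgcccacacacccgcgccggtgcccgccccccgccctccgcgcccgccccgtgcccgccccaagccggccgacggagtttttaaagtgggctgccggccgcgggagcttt
EGLN3: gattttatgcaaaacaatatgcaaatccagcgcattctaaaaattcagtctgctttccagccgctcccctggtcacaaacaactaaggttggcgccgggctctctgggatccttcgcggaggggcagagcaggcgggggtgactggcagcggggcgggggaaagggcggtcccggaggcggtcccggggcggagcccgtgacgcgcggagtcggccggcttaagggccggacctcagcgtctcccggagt
RBX1: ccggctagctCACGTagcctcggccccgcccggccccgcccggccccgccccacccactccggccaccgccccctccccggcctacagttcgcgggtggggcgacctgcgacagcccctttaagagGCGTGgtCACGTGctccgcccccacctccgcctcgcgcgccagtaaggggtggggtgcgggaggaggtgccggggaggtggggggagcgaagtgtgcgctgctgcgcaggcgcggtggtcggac

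They lie at chr14:61695263-61695512 (plus strand), chr2:46297157-46297406 (plus), chr14:33951075-33951324 (minus) and chr22:40951128-40951377 (plus), in the order shown. HIF1A and EPAS1 held 1 match each, EGLN3 held 0 and RBX1 held 4, of which ACGTG on opposite strands overlap in CACGTG. EGLN1 held 1 match and the first of the 2 EGLN2 entries held 2, again overlapping on opposite strands. The windows of ARNT, HIF1AN and CUL2 held 0. Of 35116 promoter windows of this length, 43.2% held at least 1 such match, so a single match is common. ACGTG alone was held by 18.5%. The share of windows with several matches is not given here, so nothing is read from the number in RBX1. VHL had no entry among the sequences; 9 of the 10 genes had.

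HIF1A, which encodes HIF-1α, was measured at 104, 128, 123 and 121 CPM in non-hypoxic FADU replicates 1 to 4 and at 93.2, 119, 131, 123 and 108 CPM in post-hypoxic FADU. In SCC154 the levels were 113, 98.6, 122, 92 and 113 CPM in non-hypoxic and 115, 138, 111 and 122 CPM in post-hypoxic cells. All 4 groups overlapped. The log2 difference between post-hypoxic and non-hypoxic cells was 0.17 (95% interval -0.075 to 0.42) in SCC154 and -0.052 (-0.299 to 0.195) in FADU. Non-hypoxic SCC154 differed from non-hypoxic FADU by -0.15 (-0.396 to 0.099). Post-hypoxic SCC154 differed from post-hypoxic FADU by 0.08 (-0.17 to 0.323). None of these comparisons was called, and changes within these bounds cannot be told from none.

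EPAS1, which encodes HIF-2α, separated the lines. It was measured at 21.9, 30.5, 23.5 and 18.3 CPM in non-hypoxic FADU and at 26.7, 27.1, 29.1, 23.9 and 26.4 CPM in post-hypoxic FADU. SCC154 libraries held 64.7, 91.3, 98.9, 76.8 and 85.4 CPM in non-hypoxic and 91.3, 123, 73.4 and 83.5 CPM in post-hypoxic cells. Every SCC154 library lay above every FADU library; the ranges of the lines were apart for 56.5% of all tested genes in non-hypoxic and 57.3% in post-hypoxic cells. EPAS1 was 3.51-fold higher in non-hypoxic SCC154 than in non-hypoxic FADU (log2 difference 1.81, SE 0.171, edgeR adjusted p = 2.248e-09) and 3.46-fold higher in post-hypoxic cells (log2 1.79, SE 0.161, edgeR adjusted p = 9.746e-10). A difference at least as large in either direction was found for 17.9% and 18.7% of tested genes. Within a line EPAS1 did not pass the test, and its SCC154 estimate, 0.15 on the log2 scale, was -0.088 without the 2 libraries named above. In bulk RNA, fewer cells with a transcript and less of it per cell cannot be told apart, here and below.

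The tag counts of EPAS1 relative to HIF1A differed between the lines. The ratio of EPAS1 to HIF1A counts was 0.198 ± 0.0363 (SD, n = 4) and 0.235 ± 0.034 (SD, n = 5) in non-hypoxic and post-hypoxic FADU, and 0.781 ± 0.13 (SD, n = 5) and 0.759 ± 0.104 (SD, n = 4) in SCC154. The highest FADU ratio was 0.287 and the lowest SCC154 ratio 0.575. Tag counts of different genes are not levels per molecule, so the ratio compares the lines and not the subunits.

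A limit belongs to HIF1A. Its 3′ end is covered on the opposite strand by the long non-coding RNA HIF1A-AS3, which held 0 to 4.79 CPM in FADU and 27.9 to 66.8 CPM in SCC154, and also by HIF1A-AS2, which is not used here. Whether counting used strand is not given in the sources used here, so reads of HIF1A and its antisense partners may not have been told apart, and the size of this on the HIF1A level was not tested. Its neighbour SNAPC1, a subunit of the small nuclear RNA activating complex, was at 281 ± 11.2 CPM (SD, n = 5) in non-hypoxic SCC154 and 52.2 ± 8.33 CPM (SD, n = 4) in non-hypoxic FADU.

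ARNT, the shared partner of both alpha subunits, held 30.9 to 42.9 CPM in non-hypoxic FADU and 34.9 to 52.4 CPM in post-hypoxic FADU. The ranges were 35.7 to 41.1 and 34.9 to 46.3 CPM in SCC154. All groups overlapped and none of the comparisons was called. In FADU, with libraries matched by number, ARNT was higher in the post-hypoxic library of 4 of 4 pairs. Its log2 estimate was 0.28 (95% interval -0.015 to 0.571, edgeR adjusted p = 1, and 0.8365 with the replicate block within each line). ARNT2, a paralog that can also pair with HIF-α, stood at 5.24 to 8.73 CPM on average per group, and HIF3A, a further alpha subunit, had 6 counts in all, all of them in SCC154. ARNT2 was not called between the lines in either state, and HIF3A did not pass the filter on low counts.

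Among the hydroxylases, EGLN3 encodes PHD3, the prolyl hydroxylase whose gene is itself a classic HIF target. In FADU it held 3.8, 17, 2.99 and 8.09 CPM in non-hypoxic and 2.18, 13.3, 4.99, 7.43 and 8.36 CPM in post-hypoxic cells. In non-hypoxic SCC154 replicates 1 to 5 it held 0, 0, 0.575, 0 and 0 CPM, which is 1 count in 5 libraries. In post-hypoxic SCC154 replicates 2 to 5 it held 0, 7.76, 1.23 and 1.36 CPM, 19 counts in all. FADU groups overlapped each other. Every FADU library exceeded every non-hypoxic SCC154 library, while 1 post-hypoxic SCC154 library, replicate 3, fell within the FADU range. In non-hypoxic cells the ranges of the lines were apart for 56.5% of all tested genes.

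Counts this low allow a ratio with its counting interval only. Post-hypoxic over non-hypoxic SCC154 was 22.9-fold by summed counts per CPM (95% counting interval 3.64 to 952), from 19 against 1 count. Without replicate 3 it was 8.95-fold (1.09 to 412), from 6 counts against 1. These intervals cover counting error only, and across replicates the change was not called (edgeR adjusted p = 0.1707), although it was called with no filter on low counts (0.01008) and with a replicate block within each line (0.006435). Non-hypoxic FADU over non-hypoxic SCC154 was 87-fold (15.1 to 3488), from 68 counts against 1, and was called (edgeR adjusted p = 4.983e-05). In post-hypoxic cells EGLN3 was also called lower in SCC154 (log2 -1.70, edgeR adjusted p = 0.02443), but lost the call in 5 of 26 alternative settings, among them DESeq2 (adjusted p = 0.1172). EGLN3 passed the filter on low counts through its FADU levels. Both calls between the lines are thus of a gene kept because it was high in FADU, and they are given as a description.

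Across the 18 libraries the gene whose group-centred log2 level was most like that of EGLN3 was NDRG1, a known hypoxia-responsive gene, with r = 0.89 over 18 libraries among 9667 genes compared. IRX2-DT followed at 0.86 and PARP3 at 0.85. NDRG1 was at 71.6 CPM in post-hypoxic SCC154 replicate 3, the library that held 7.76 CPM of EGLN3, and at 4.1 to 9.08 CPM in the other 3 libraries of that group. Other hypoxia-responsive genes were mixed. Within the group, VEGFA (84.7 CPM) and BNIP3 (119 CPM) were also highest in replicate 3, while SLC2A1 (31 CPM) and CA9 (1.19 CPM) were not. The likeness of EGLN3 and NDRG1 is a description. NDRG1 was picked as the highest of 9667 genes, and a single library such as this replicate 3 can weigh heavily in r. By the same measure HIF1A was most like TMEM131 (r = 0.86), PPP2R1A (0.85) and SLC16A3 (0.76), and EPAS1 most like RESF1 (0.87), LINC03072 (0.87) and NFKBIL1 (0.86).

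**Figure D2:**
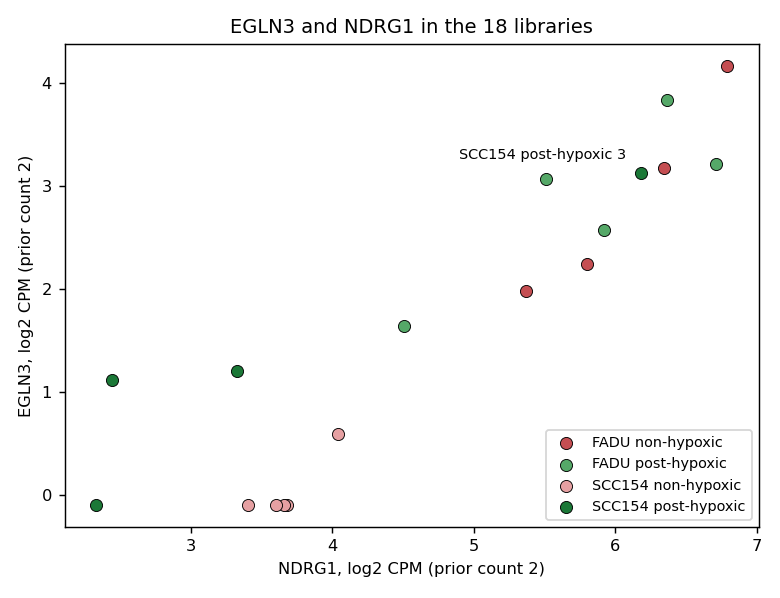
Log2 CPM (prior count 2) of EGLN3 (y axis) against NDRG1 (x axis), 1 point per library, coloured by group. Post-hypoxic SCC154 replicate 3 lies with the FADU libraries on both axes, the other SCC154 libraries lie low on both.

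EGLN1 and EGLN2, encoding PHD2 and PHD1, were near zero. EGLN1 had 0 to 3 counts per library, 9 in total in 6 of 18 libraries, and none in post-hypoxic SCC154, where 0 counts allow up to 3 over the group. EGLN2 had 0 to 4 counts per library, 23 in total in 12 of 18. No comparison of groups is possible from so few counts, and no level is read from them. EGLN1 is covered at its 3′ end by the non-coding gene LOC107985360. EGLN2 lies wholly inside RAB4B-EGLN2, which is on the same strand and had 0 counts in every library. How reads shared by overlapping genes were assigned is not given in the sources used here, and its part in these low counts was not tested.

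FIH, the asparaginyl hydroxylase (HIF1AN), separated non-hypoxic cells of the lines. It held 141, 155, 132 and 112 CPM in non-hypoxic FADU and 104, 91.8, 92.6, 62 and 83.3 CPM in non-hypoxic SCC154, with no overlap. It was 1.56-fold lower in SCC154 (log2 -0.64, SE 0.129, edgeR adjusted p = 0.000121). In non-hypoxic cells the ranges of the lines were apart for 56.5% of all tested genes, and 54.5% differed at least this much. Post-hypoxic FADU held 120, 108, 127, 119 and 113 CPM and post-hypoxic SCC154 114, 95.5, 96.8 and 85.3 CPM, which overlapped, and that difference missed the threshold (log2 -0.26, 95% interval -0.537 to 0.019, edgeR adjusted p = 0.0787); it was called in 2 of 18 fits that left out 1 library, without SCC154 non-hypoxic 4 (0.0456) or post-hypoxic 2 (0.0382). The difference between the 2 changes was 0.38 on the log2 scale (95% interval -0.007 to 0.777, edgeR unadjusted p = 0.04628, adjusted p = 0.4984). A loss of the line difference after hypoxia is therefore not shown.

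The ubiquitin ligase that receives hydroxylated HIF-α gave the one called change within a line. VHL, its substrate receptor, held 89.8, 88.4, 77.6, 98.9 and 82.1 CPM in non-hypoxic SCC154 replicates 1 to 5 and 56.1, 62.6, 53.7 and 72.1 CPM in post-hypoxic replicates 2 to 5. Every post-hypoxic library lay below every non-hypoxic one; the ranges of the 2 groups did not overlap for 5.55% of all tested genes. In FADU it held 100, 113, 97.3 and 85.2 CPM in non-hypoxic and 99.7, 110, 99.9, 106 and 125 CPM in post-hypoxic cells, which overlapped.

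VHL fell by 0.52 on the log2 scale in post-hypoxic SCC154 (SE 0.12). Its mean was 87.4 ± 8.1 CPM (SD, n = 5) in non-hypoxic and 61.2 ± 8.25 CPM (SD, n = 4) in post-hypoxic cells, 69.8% of the non-hypoxic level (edgeR adjusted p = 0.04156). A change at least this large in either direction was found for 10.5% of tested genes. The call is close to the threshold. It held in 14 of 27 alternative settings, with adjusted p from 0.006808 to 0.1637, and was lost with upper-quartile factors (0.06089), with only the 2 groups in the fit (0.1142), without the 2 libraries named above (0.07244) and in 10 of 18 fits that left out 1 library; the estimate stayed between -0.602 and -0.46. Those 10 left out FADU non-hypoxic 3, FADU post-hypoxic 2 or 3, any of the 5 non-hypoxic SCC154 libraries, or post-hypoxic SCC154 2 or 4, with adjusted p from 0.05234 to 0.1637. In FADU the change was 0.13 (95% interval -0.117 to 0.376). The difference between the lines' changes was -0.65 (SE 0.166) and was not called (edgeR adjusted p = 0.2351). With a replicate block within each line it was (edgeR adjusted p = 0.04868), the only one of 26 alternative settings that called it. Whether the numbers pair the libraries is not settled in either line.

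**Figure D3:**
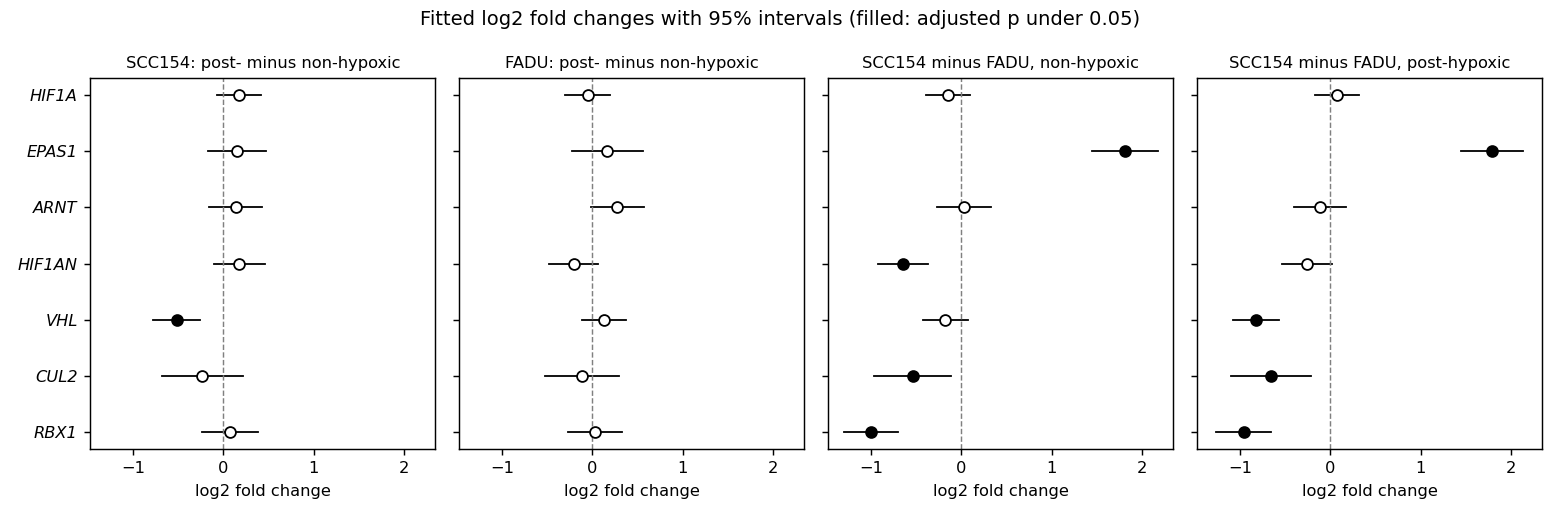
Fitted log2 fold changes (x axis) of 7 of the 8 tested genes with 95% intervals in 4 comparisons, filled points for calls. EGLN3 is left out because non-hypoxic SCC154 held 1 count. VHL is the only filled point within a line, and EPAS1 lies farthest from 0 between the lines.

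The genes around VHL were lower with it. VHL lies on chr3:10141778-10153667 (GRCh38.p14), and 21 other tested genes lie within 1 Mb of it. All 21 had a negative estimate in post-hypoxic SCC154, against 49.4% of all tested genes. Their median log2 change was -0.509, close to that of VHL itself. In FADU 11 of the 21 were positive and 10 negative, with a median of 0.03. This window was looked at after the VHL result was seen, and the estimates of neighbours share the same 9 SCC154 libraries, so these are counts and medians with no test of the region.

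Of the 21, 2 were called lower on their own, while 0.423% of all tested genes were called lower in that comparison. The window was chosen after the VHL result, so no test is made of this count. One of the 2 was SETD5, a chromatin protein, which went from 266 to 198 CPM on average (log2 -0.42, edgeR adjusted p = 0.03215). FANCD2, a DNA repair gene, went from 60.1 to 44.7 CPM (edgeR adjusted p = 0.06585, not called), and BRK1 next to VHL from 38 to 33.6 CPM (0.7555, not called). SEC13, a coat protein of transport vesicles, went from 37.9 to 23.6 CPM (0.2614, not called). In FADU the log2 estimates were -0.05 for SETD5, 0.03 for FANCD2, 0.06 for BRK1 and -0.33 for SEC13, and none was called. These genes were named after their values were seen.

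The shift was alike in each library. The median deviation of the 21 neighbours from the mean of non-hypoxic SCC154 was -0.503, -0.445, -0.499 and -0.48 in post-hypoxic replicates 2 to 5, and lay between -0.124 and 0.051 in the 5 non-hypoxic libraries. The FADU libraries lay between -0.065 and 0.134 from their own non-hypoxic mean. Over 29 alternative settings, including windows of 0.5 and 2 Mb, the median stayed between -0.530 and -0.449.

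Outside this window the estimates were mixed. Of the 8 tested genes that lie further towards the chromosome end, 5 were negative, with a median of -0.43. ATG7 and VGLL4, which lie 1.13 and 1.41 Mb after it, were at -0.91 and -0.96, while the 12 genes 1 to 3 Mb after it, which include them, had a median of 0.088. Of 264 stretches of 10 Mb with at least 15 tested genes, the one with the lowest median in SCC154 was the first of chromosome 3, which ends just before VHL (median -0.489 over 22 genes in SCC154, -0.007 in FADU). Because 14 of those 22 genes belong to the window already described, and only 8 do not, this rank largely restates the same genes. DNA copy number was not measured in these libraries, and neither copy number nor any other source of the shift was tested.

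**Figure D4:**
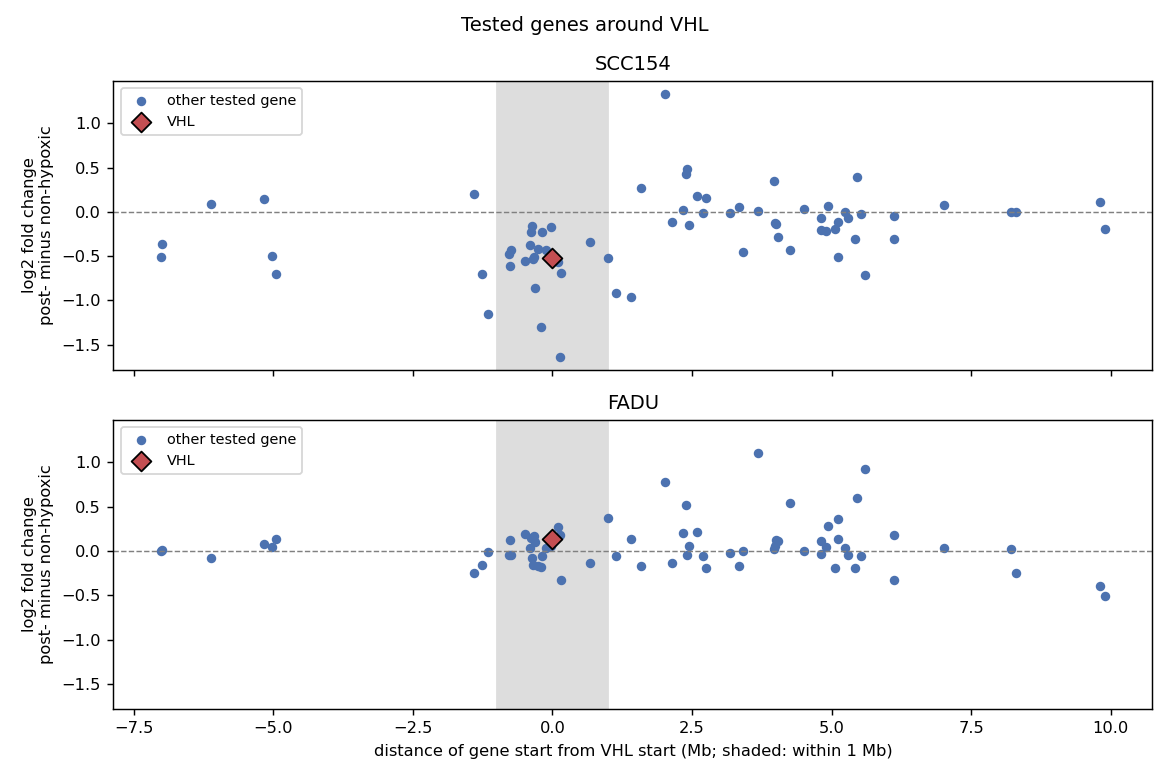
Log2 fold change of post- over non-hypoxic cells (y axis) for each tested gene by the distance of its start from the VHL start (x axis, Mb), SCC154 above and FADU below, with VHL as a diamond and the shaded band 1 Mb to each side. In SCC154 all genes in the band lie below 0, and in FADU they lie on both sides of it.

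The other subunits of the ligase were called between the lines and not within them. RBX1, the RING subunit that recruits the ubiquitin-carrying enzyme, held 149, 185, 231 and 237 CPM in non-hypoxic FADU and 101, 101, 91.4, 100 and 106 CPM in non-hypoxic SCC154. Post-hypoxic levels were 190, 208, 218, 216 and 189 CPM in FADU and 117, 74, 132 and 94.4 CPM in SCC154. No SCC154 library reached the lowest FADU library. RBX1 was 2-fold lower in non-hypoxic SCC154 (log2 -0.999, SE 0.141, edgeR adjusted p = 1.259e-06) and 1.95-fold lower in post-hypoxic SCC154 (log2 -0.96, SE 0.143, edgeR adjusted p = 2.615e-06). A difference at least as large was found for 37.6% and 40.2% of tested genes. The ranges of the lines were apart for 56.5% and 57.3%.

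CUL2, the scaffold of the ligase, was lower in SCC154 too. It held 38.5, 37, 27.5 and 29.1 CPM in non-hypoxic FADU and 28.6, 22.2, 24.2, 16.9 and 22.4 CPM in non-hypoxic SCC154, and 35.4, 32.2, 30, 33.4 and 22.4 CPM against 17.6, 25.7, 11.5 and 24 CPM in post-hypoxic cells. The ranges overlapped in both states. It was 1.45-fold lower in non-hypoxic cells (log2 -0.54, edgeR adjusted p = 0.01974) and 1.58-fold lower in post-hypoxic cells (log2 -0.66, edgeR adjusted p = 0.006672). Differences at least as large were found for 60.6% and 54.1% of tested genes. Without FADU non-hypoxic 1 or 2, or SCC154 non-hypoxic 4, the non-hypoxic call was lost (adjusted p 0.06546, 0.06004 and 0.05854).

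VHL itself was lower in SCC154 in post-hypoxic cells, 1.77-fold (log2 -0.83, SE 0.119, edgeR adjusted p = 1.595e-06), and not called in non-hypoxic cells (log2 -0.18, 95% interval -0.428 to 0.069). In post-hypoxic cells 45.7% of tested genes differed at least as much as VHL. The elongins ELOB and ELOC, which link VHL to CUL2, were lower in SCC154 in both states: ELOB held 264 ± 38.4 CPM (SD, n = 4) in non-hypoxic FADU and 68.6 ± 12.2 CPM (SD, n = 5) in non-hypoxic SCC154, 3.83-fold lower (edgeR adjusted p = 2.694e-12), and ELOC 139 ± 38.1 and 68.9 ± 4.91 CPM, 2.01-fold lower (edgeR adjusted p = 3.396e-06). Of these 5 subunits, 4 were called lower in SCC154 in non-hypoxic and all 5 in post-hypoxic cells, with medians of -0.999 and -0.96, and none higher; 34.5% and 34.9% of all tested genes were called lower. Within SCC154 the log2 estimates of post-hypoxic against non-hypoxic cells were 0.07 for RBX1 (95% interval -0.241 to 0.379), -0.23 for CUL2 (-0.685 to 0.221), 0.22 for ELOB (-0.054 to 0.498) and -0.18 for ELOC (-0.519 to 0.166). These intervals do not show that the subunits stayed level. NEDD8, which activates the cullin, stood at 270 and 272 CPM in the non-hypoxic groups.

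**Figure D5:**
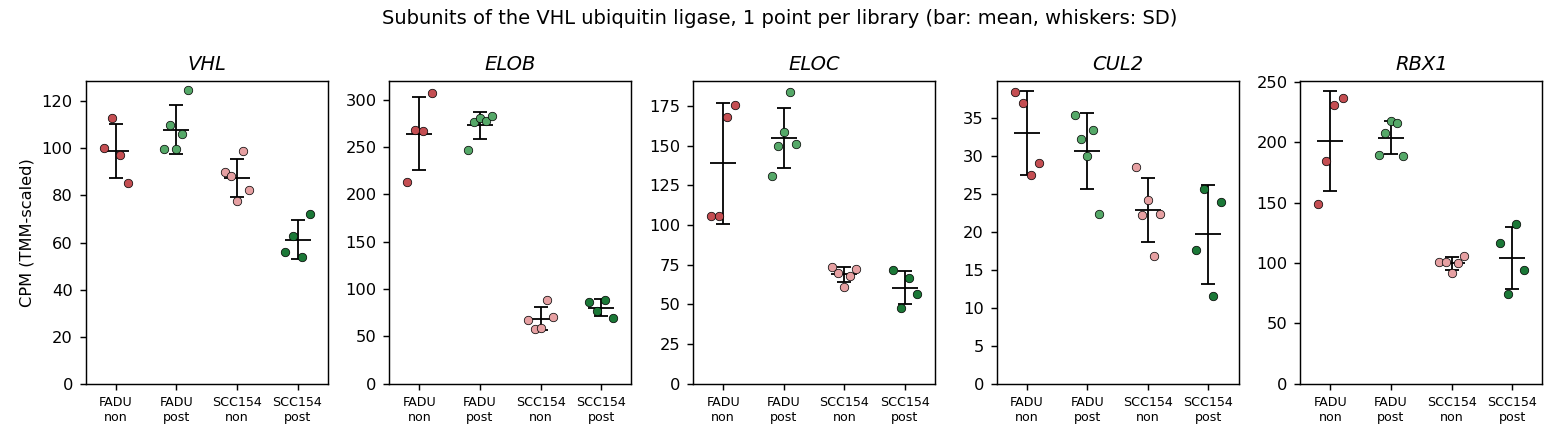
CPM (y axis, own scale for each gene) of the 5 subunits of the VHL ligase by group, 1 point per library, bar for the mean and whiskers for the SD. ELOB, ELOC and RBX1 are lower in SCC154, and VHL is lowest in post-hypoxic SCC154.

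The wider ligase list, with 18 genes for partners and neddylation, had 11 called in non-hypoxic cells between the lines (1 higher, 10 lower, median log2 -0.35 against -0.01 for all genes) and 10 in post-hypoxic cells (1 higher, 9 lower). These are 61.1% and 55.6% of the list, against 68.9% and 69.7% of all tested genes. Besides the elongins, UBE2D2, a ubiquitin-conjugating enzyme, was 2.2-fold lower in SCC154 and UBE2M, a NEDD8-conjugating enzyme, 1.96-fold higher in non-hypoxic cells, and the cullin CUL5 was 1.81-fold lower in post-hypoxic cells. The means went the same way in the other state. UBE2M held 83.8 CPM in post-hypoxic SCC154 and 51.3 CPM in post-hypoxic FADU. CUL5 held 106 CPM in non-hypoxic SCC154 and 170 CPM in non-hypoxic FADU. Of 29 tested genes within 1 Mb of RBX1, 17 were called lower and 5 higher in non-hypoxic SCC154, with a median of -0.409; over all tested genes 34.5% were called in each direction. The part of position in the RBX1 difference was not tested. EPAS1, on chr2:46297407-46386697, had 12 tested neighbours within 1 Mb, 4 called higher and 2 lower in non-hypoxic SCC154, with a median of 0.24 beside its own 1.81. HIF1AN, on chr10:100535943-100559998, had 21, of which 5 were called higher and 10 lower, with a median of -0.45 beside its own -0.64.

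Of 27 tested HIF cofactors and regulators of HIF stability, 7 were called higher and 16 lower in non-hypoxic SCC154 (median -0.53). That is 85.2% of the list, against 68.9% of all tested genes, and nothing particular to the list is read from it. The coactivator gene CREBBP was 6.09-fold lower in SCC154 and 7.17-fold lower in post-hypoxic cells, with 247 against 40.7 CPM in non-hypoxic cells. CITED2, which competes with HIF-α for that coactivator, was 6.79-fold higher, from 2.61 to 17.7 CPM. HSP90AB1, a chaperone, was 3.12-fold lower, and USP28, a deubiquitinase, 2.87-fold lower. None of the 27 was called within either line.

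Among 12 tested bHLH-PAS relatives of the HIF subunits, 7 were called higher and 2 lower in non-hypoxic SCC154. That is 75% of the list, against 68.9% of all tested genes (34.5% in each direction), and nothing particular to the list is read from it. SIM2, a transcription factor that also pairs with ARNT, stood at 23.9 against 0.747 CPM, BMAL2 at 74.8 against 9.16 CPM and the clock gene PER3 at 112 against 30 CPM, while PER2 was 2.1-fold lower. Of 36 other tested oxygen-dependent dioxygenases, 7 were higher and 15 lower, 61.1% called against 68.9% of all genes. The collagen hydroxylases P3H2 and PLOD2 were 3.32-fold and 2.51-fold higher in SCC154, PLOD3 was 2.58-fold and RIOX2, a ribosomal protein hydroxylase, 2.95-fold lower. ADO, a cysteamine dioxygenase that also senses oxygen, was 1.45-fold lower (edgeR adjusted p = 0.007117), and P4HTM, a membrane-bound prolyl hydroxylase, was not called. None of the genes in these lists was called within SCC154 or within FADU.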

How the data were processed

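Libraries were made with the QuantSeq 3′ kit, which reads transcripts at the poly(A) end. The values are whole-number counts per gene symbol, deposited by the authors in 1 table of 41120 symbols and 18 libraries; no column lacked a sample. Per the submitters' processing notes, which give no roles, the tools were HISAT2 2.2.1, featureCounts 1.5.1, UMI-tools 1.1.5, Trimmomatic 0.39, FastQC 0.11.9 and DESeq2, and the build was hg38. Settings, annotation and strand use were not given in these sources. Whether duplicates were removed by UMI is not stated, so counting intervals and floors (3 counts over a group) cover counting error only.

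Counts were tested with edgeR 4.0.16 (R 4.3.3): TMM factors, filterByExpr with the 4 groups, 1 quasi-likelihood model with 4 group means, 5 contrasts, and Benjamini-Hochberg adjustment over 12291 genes. The common coefficient of variation between replicates was 0.148 and the residual degrees of freedom were 14; standard errors are the log2 fold change over the square root of F. Group values are mean ± SD of CPM on TMM-scaled library sizes. limma 3.58.1 and DESeq2 1.42.0 were alternatives. On simulated counts for the SCC154 comparison, in a step over 12291 genes, 40% of 1.5-fold, 72.6% of 2-fold and 100% of 4-fold changes were called. For the non-hypoxic line comparison, in a step of the same size, these shares were 37.2%, 75.7% and 94.2%. In each step 12091 genes were simulated with no change. In the data 68.9% of tested genes were called between the non-hypoxic lines. The simulated shares for that comparison therefore do not tell what share of its real changes is called.

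The genes and companion lists were chosen with earlier results of these data known. All 10 genes are named, and per list and comparison up to 4 called genes with the largest log2 change and at least 10 CPM; ELOB, ELOC, NEDD8, ARNT2, HIF3A, P4HTM and ADO are named always, and for HIF1A, EPAS1 and EGLN3 the 3 genes most like them. SNAPC1 and the named genes near VHL were chosen after their values were seen; the other gene called there is not reported here. Positions and promoter windows are RefSeq on GRCh38.p14. Groups and replicate numbers came from the sample titles. The deviations of same-numbered FADU libraries correlated with r from 0.213 to 0.549 over 9667 genes. For SCC154 r ran from 0.0453 to 0.48. These ranges overlap, and same-numbered non-hypoxic libraries of different lines reached 0.389. Pairing by number is therefore not settled in either line. The main test used no block. By number, post-hypoxic SCC154 libraries were higher for HIF1A and HIF1AN, and lower for VHL, in 4 of 4 pairs.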

Additional observations from a re-analysis of the deposited data

Results flagged for a closer look

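Of 39 gene-by-group sets checked for a library that stands apart by Dixon's test, 3 did; chance flags about 1 in 20. Each was a single count: EGLN1 in FADU non-hypoxic 2 (0.436 CPM), EGLN2 in FADU non-hypoxic 4 (0.539 CPM) and EGLN3 in SCC154 non-hypoxic 3 (0.575 CPM), where every other library of the group was at 0.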

How the results depend on the processing

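The number of genes called in post-hypoxic against non-hypoxic SCC154, 1 in the main analysis, was 0 with upper-quartile factors, 0 with only the 2 groups compared, 0 without SCC154 non-hypoxic 1 and post-hypoxic 3, 2 with no filter on low counts and 2 with a replicate block within each line; leaving out 1 library gave 0 to 1. For the difference between the lines in that change, 0 in the main analysis became 1 with no filter and 2 with the replicate block within each line. EGLN3 then joined the calls in SCC154 (adjusted p 0.01008 without the filter and 0.006435 with the block), and the block gave VHL an adjusted p of 0.006808 in SCC154 and 0.04868 for the difference between the lines. With the block, calls over all genes rose from 93 to 1052 in SCC154. Whether the numbers pair the libraries is not settled in either line, and the cause of this rise was not tested. The within-line block changed no call of these genes in FADU, where calls over all genes rose from 0 to 7. A block shared across the lines changed no call of any of these genes.

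Direction turned in these uncalled estimates: EPAS1 in SCC154, -0.088 without both libraries, and from -0.01 to 0.246 when 1 library was left out; RBX1 in SCC154, from -0.065 to 0.196; HIF1A in FADU, from -0.113 to 0.012; EGLN3 in FADU, from -0.461 to 0.584; RBX1 in FADU, from -0.089 to 0.119; and ARNT in non-hypoxic SCC154 against FADU, from -0.052 to 0.103. The cause was not tested. A within-line block could not be fitted for contrasts between lines, and the fit of 2 groups gives no difference between lines. DESeq2 gave EGLN3 no adjusted p in SCC154, where EGLN3 had a result in 26 settings against 28 for HIF1A. EGLN1 and EGLN2 held too few counts to compare the groups, and the cause of their low counts was not tested.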
